A study of Mus musculus with 12 samples.

Results

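The interaction of acd with loss of p53 is the part of the double mutant's expression that the sum of the single mutants' differences does not give. It was computed per gene by subtracting the difference between acd and wt from that between double and p53 mutants, on all 12 arrays and over the 34945 probe sets, of 45101, that carry 1 gene symbol. Of the 18193 genes these represent, 13501 were tested. Each array measured the RNA of 1 sample of whole mouse embryo at E10.5 (embryonic day, midgestation), and the 4 genotypes had 3 arrays each: wild type (wt), homozygous for the allele acd (Acdacd/acd), lacking p53 (p53-/-), and both homozygous for acd and lacking p53 (the double mutant). The labels call the replicates biological. The sources used here give neither the making of the alleles nor strain and litters. The series' design asks which pathways behind the acd phenotype depend on p53 and which do not, and the interaction is the direct contrast for that question.

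Acd encodes TPP1, a member of the shelterin complex that caps chromosome ends and recruits telomerase. Chromosome ends without a working cap are read as broken DNA, and the kinases that answer broken DNA activate p53, a transcription factor that halts the cell cycle or starts apoptosis through targets such as Cdkn1a and Bbc3. A gene whose response to acd needs p53 would differ between wt and acd but not between p53 and double mutants, and a gene that responds once p53 is gone would do the reverse.

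The values are log2 RMA values, so a difference of 1 is a 2-fold difference. For each gene the additive expectation is the p53 mean plus the acd minus wt difference, the departure of a double mutant array is its value minus that expectation, and the mean of the 3 departures is the interaction. The 3 departures of a gene share the same 9 other arrays, so their common sign is not 3 independent observations. The gene lists and their members were chosen with earlier results of these data known, so their counts against all genes are no independent evidence. Genes with a genotype mean around or below the array medians (5.32 to 5.40) were not shown to be above background there.

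Acd itself measured 9.0, 8.99 and 8.99 in wt, 8.27, 8.31 and 8.22 in acd, 8.84, 8.85 and 9.05 in p53, and 8.44, 8.42 and 8.24 in double mutant replicates 1, 2 and 3. The acd and double mutant arrays all lay below the wt and p53 arrays. The difference was -0.73 with p53 and -0.55 without it, an interaction of 0.18 ± 0.12 (SE, n = 3 per genotype, limma adjusted p = 0.879). The p53 transcript was not analysed here.

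The double mutants were not alike. Median correlations with the other arrays were 0.972 for double mutant replicate 1 and 0.987 for replicate 2, against at least 0.995 for the others, and the median SD within a genotype was 0.209 in double mutants and 0.059 in wt. The median size of a departure was 0.278 in replicate 1, 0.151 in replicate 2 and 0.083 in replicate 3. Departures larger than 1 were found for 446 genes in replicate 1 (309 of them above expectation), for 205 in replicate 2 (186 above) and for 30 in replicate 3 (4 above and 26 below). Y-linked transcripts were read on all 3 arrays of acd and all 3 of p53 mutants, but on 1 of 3 for wt and 1 of 3 for double mutants. Results are therefore also given without double mutant replicates 1 and 2, and with sex as a term of the fit.

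No gene passed limma's test of the interaction at an adjusted p of 0.05 (0% of those tested, the lowest adjusted p being 0.879), and the median SE of an interaction was 0.158. At an unadjusted p under 0.05 the interaction was above 0 for 332 genes (2.46%) and below 0 for 199 (1.47%). The genes above 0 were mostly crossing: 295 of the 332 were lower in acd than wt and higher in double than p53 mutants, 33 were higher and 4 lower in both comparisons. Of the 199 below 0, 188 were higher in acd than wt and lower in double than p53 mutants. Over all tested genes, 3162 and 3050 crossed in these 2 ways. These splits describe the same contrast that chose the genes and are not tested. The interaction was above 0 for 6613 of the tested genes and below 0 for 6888. All 3 double mutants lay above the expectation for 2164 genes (16%) and below it for 2258 (16.7%). Every double mutant array lay above all 9 others for 118 genes (0.874%) and below all 9 others for 195 (1.44%).

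**Figure D1:**
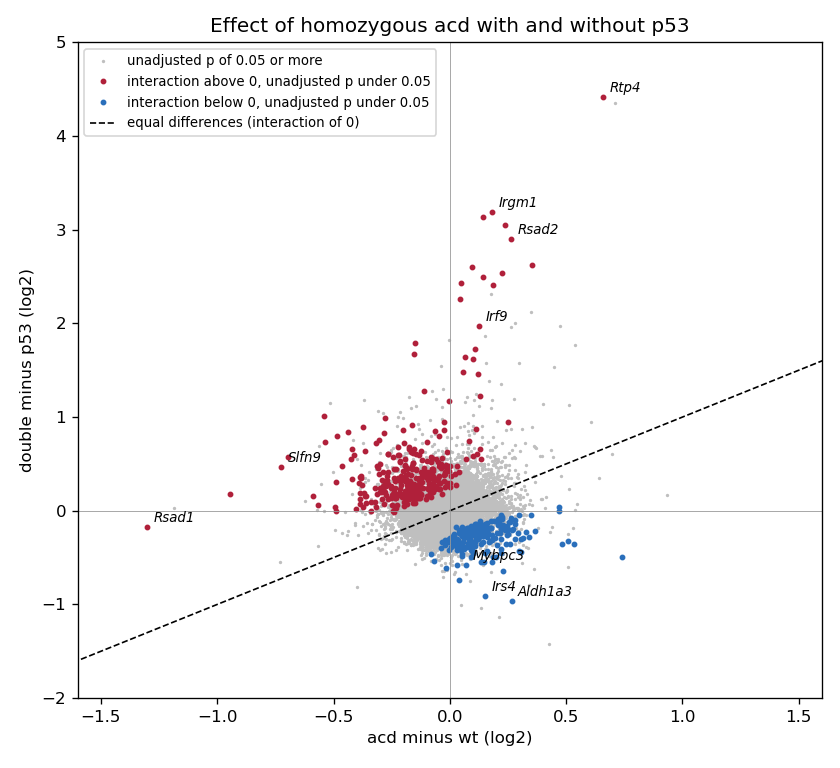
Difference of acd from wt (x axis, log2) against difference of double from p53 mutants (y axis, log2) for each tested gene. The dashed line marks equal differences, and coloured points are the 332 genes above and 199 below it at an unadjusted p under 0.05; 5 genes (Xist, Kdm5d, Eif2s3y, Uty and Elmo3) lie outside the axes. Rtp4, Irgm1 and Rsad2 stand at the top, with differences over 2 in double against p53 mutants and under 1 in acd against wt.

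Among the 10 genes below 0 with the smallest p, the ones seen clearly above background included Mybpc3, cardiac myosin-binding protein C of the heart sarcomere. It measured 8.04, 8.07 and 7.97 in wt, 8.12, 8.08 and 8.09 in acd, 8.04, 8.13 and 8.17 in p53, and 7.50, 7.75 and 7.36 in double mutants. The 9 arrays of the other genotypes lay between 7.97 and 8.17, and all double mutants lay below them. The interaction was -0.65 ± 0.13 (SE, unadjusted p = 0.000433, adjusted p = 0.879), from -0.82 to -0.48 over all alternative settings. The interaction was -0.56 without double mutant replicate 3 (limma adjusted p = 0.0317), and -0.82 without replicates 1 and 2, which leaves 1 double mutant array. Both fits share the 9 other arrays, so they are not independent of each other. Mybpc3 passed in no fit that left out any other single array.

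Irs4, an X-linked docking protein of insulin and insulin-like growth factor receptors, measured 7.68, 7.87 and 7.68 in wt and 7.67, 7.86 and 8.16 in acd. It measured 7.60, 7.68 and 7.85 in p53 and 6.46, 7.05 and 6.90 in double mutants, again with no overlap. The interaction was -1.06 ± 0.22 (SE, adjusted p = 0.879), or -1.47 in the fit that includes sex. The other probe set of Irs4 gave 0.05 ± 0.17, so the result rests on 1 of 2 probe sets. Of the 21 tested genes of insulin-like growth factor signalling, 10 had an interaction above and 11 below 0, with a median of -0.011 against -0.005 over all genes.

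Bbc3, which encodes the apoptosis inducer PUMA, measured 7.16, 7.12 and 7.09 in wt, 7.14, 7.18 and 7.15 in acd, 7.26, 7.08 and 7.33 in p53, and 6.87, 6.86 and 6.99 in double mutants. All double mutants lay below the 9 other arrays, while acd alone left the level within the wt and p53 range. The interaction was -0.35 ± 0.11 (SE, adjusted p = 0.879) and lay between -0.42 and -0.26 in every alternative. The other 9 tested p53 targets in apoptosis had no unadjusted p under 0.05, and the 10 together had a median of -0.009, with 5 above and 5 below 0.

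Cdkn1a, the cell cycle inhibitor p21 and a direct target of p53, was higher than wt in 2 of 3 acd arrays. At the probe set used it was so in no double mutant. It measured 8.09, 8.09 and 8.04 in wt, 8.02, 8.83 and 8.99 in acd, 7.92, 8.04 and 8.02 in p53, and 8.06, 8.07 and 8.06 in double mutants. Acd replicate 1 lay at the wt level, and the double mutants lay just above the p53 mutants and within the wt range. The acd minus wt difference was 0.55 and the double minus p53 difference 0.07, an interaction of -0.48 ± 0.26 (SE, unadjusted p = 0.0983, adjusted p = 0.879). Without acd replicate 1 it was -0.77 and without acd replicate 3 it was -0.29, whereas leaving out any double mutant gave -0.48 or -0.47. The departures of the 3 double mutants were -0.48, -0.47 and -0.48. The other probe set of Cdkn1a gave -0.45 ± 0.36. It measured 8.05, 7.98 and 7.92 in wt, 7.77, 8.90 and 9.05 in acd, and 7.98, 8.21 and 7.95 in double mutants. Double mutant replicate 2 lay above the wt arrays there, as did p53 replicate 2 at 8.09.

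Of 23 tested p53 targets in arrest and feedback, 10 had an interaction above and 13 below 0, with a median of -0.06. The 1 member with an unadjusted p under 0.05 lay above 0: Ccng2, cyclin G2, with an interaction of 0.65 ± 0.25. It measured 10.08 to 10.21 in wt and 10.05 to 10.18 in p53 arrays, and 10.93, 10.69 and 10.06 in double mutants, so replicate 3 lay at the p53 level. The mean of the list relative to wt was -0.09, 0.16 and 0.19 in acd replicates 1, 2 and 3 and -0.14, -0.02 and -0.14 in double mutants, so acd replicate 1 lay apart from the other acd arrays, below wt (-0.07 to 0.05) and next to p53 (-0.14 to -0.10). All 3 double mutants were below the expectation for 11 of the 23 members, against 16.7% of all genes, and above it for 5, against 16%.

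**Figure D2:**
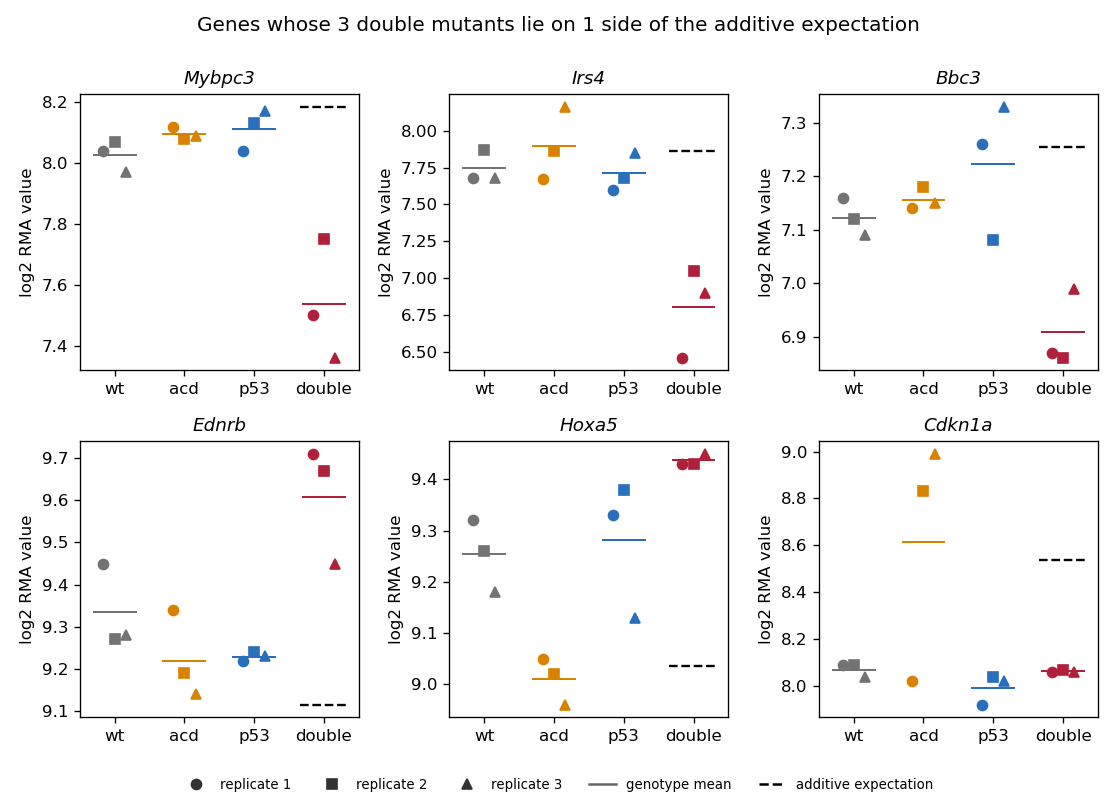
Log2 RMA values (y axis) of 6 genes in each array, by genotype (x axis), with bars at genotype means, symbols for replicate numbers and a dashed bar at the additive expectation. In Mybpc3, Irs4 and Bbc3 all double mutants lie below every other array. In Ednrb and Hoxa5 they lie above the expectation, and in Cdkn1a they lie at the wt level while 2 acd arrays are high.

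Genes that copy or guard DNA made up part of the genes below 0. Kif18b, a kinesin that sets microtubule length at mitosis, measured 8.20 to 8.41 in wt, 8.52 to 8.64 in acd, 8.50 to 8.56 in p53 and 8.13, 8.29 and 8.40 in double mutants, an interaction of -0.50 ± 0.12 (adjusted p = 0.879). Ccne1, cyclin E1, which drives entry into S phase, measured 10.57 to 10.69 in wt, 10.74 to 10.88 in acd, 10.65 to 10.73 in p53, and 10.42, 10.47 and 10.62 in double mutants, an interaction of -0.36 ± 0.11. In both genes acd lay above wt with p53 and double mutants lay below p53 mutants. Bard1, the partner of BRCA1 in homologous recombination, measured 5.11 to 5.34 in wt, 5.45 to 5.61 in acd, 5.30 to 5.54 in p53, and 4.84, 4.87 and 5.15 in double mutants, around the array medians, so no size is given.

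As lists, 28 of 33 genes of the DNA damage response and repair had an interaction below 0 (median -0.24), as had 23 of 28 DNA replication genes (median -0.20) and 19 of 24 genes of G2 and mitosis (median -0.15). Over all 13501 tested genes, 6888 lay below 0. At an unadjusted p under 0.05, 2 of the 33 lay below 0, 1 of the 28 and 1 of the 24, against 1.47% of all genes. They were Bard1 and Xrcc6 (Ku70, which binds broken ends, -0.35) for repair, Ccne1 for replication, and Aurkb (the mitotic kinase Aurora B, -0.44) for mitosis. The other probe set of Xrcc6, below the array medians, gave 0.24 ± 0.15, and that of Aurkb -0.22 ± 0.17. The list medians came from double mutant replicate 1 above all. The median departures in replicates 1, 2 and 3 were -0.53, -0.14 and 0.02 for repair, -0.44, -0.18 and -0.02 for replication, and -0.45, -0.12 and 0.06 for mitosis. Over all genes these medians were 0.026, -0.01 and -0.004.

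The telomere and shelterin list, the complex that acd itself affects, had a median interaction of -0.07, with 5 of 19 members above 0. Gar1, a protein of the telomerase RNA particle, had a mean of 11.07 in wt, measured 11.09 to 11.20 in acd and p53, and 10.47, 10.75 and 11.07 in double mutants, an interaction of -0.45 ± 0.17. Double mutant replicate 3 lay at the wt level, and the median departures of the list were -0.17, -0.16 and 0.05. Terf1, Terf2 and Tinf2, named as members of shelterin, had interactions of -0.09, -0.07 and -0.04.

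Tail bud genes departed in all 3 double mutants with medians on the same side. In the tail bud and posterior axis list, 15 of 19 members had an interaction below 0, with a median of -0.26 and median departures of -0.27, -0.22 and -0.16 in replicates 1, 2 and 3. All 3 double mutants lay below the expectation for 10 of the 19, against 16.7% of all genes. At an unadjusted p under 0.05 there were 5 members below 0, against 1.47% of all genes, and none above. Sp5, a target of Wnt signalling, measured 6.80 to 6.85 in wt, 6.83 to 7.39 in acd, 6.85 to 7.31 in p53, and 6.24, 6.53 and 6.98 in double mutants (-0.67 ± 0.27). Cdx2, which specifies posterior identity, measured 5.58 to 5.88 in wt, 5.70 to 6.16 in acd, 5.78 to 6.36 in p53, and 5.25, 5.62 and 5.68 in double mutants (-0.69 ± 0.24). Fgf17 and Fgf4, fibroblast growth factors of the tail bud and other signalling centres, also had an unadjusted p under 0.05, but lay around the array medians, so no size is given. Of the other 3 probe sets of Fgf4, 1 had an interaction below 0 and 2 above. The list median was -0.16 without double mutant replicates 1 and 2 and -0.30 with sex as a term.

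Hox genes, which set position along the body axis, lay on the other side. Of 30 tested, 25 had an interaction above 0, with a median of 0.14. The acd minus wt median was -0.18, while the double minus p53 median was -0.02. All 3 double mutants were above the expectation for 11 and below it for none, against 16% and 16.7% of all genes. The median departures of the list were 0.011, 0.17 and 0.23 in replicates 1, 2 and 3, so replicate 1 lay as near 0 as over all genes (0.026). Hoxa5 measured 9.32, 9.26 and 9.18 in wt, 9.05, 9.02 and 8.96 in acd, 9.33, 9.38 and 9.13 in p53, and 9.43, 9.43 and 9.45 in double mutants. Acd arrays lay below all others and double mutants above all others, and the interaction was 0.40 ± 0.11 (adjusted p = 0.879). Hoxb6 gave 0.44 ± 0.12, Hoxc4 0.29 ± 0.11 and Hoxa10 0.54 ± 0.22. The other probe set of Hoxa5 gave 0.18 ± 0.12. The exceptions were Hoxb1 at -0.68, Hoxc13 at -0.11, Hoxd11 and Hoxd9 at -0.10 and Hoxd8 at -0.08, named after their values were seen. The list median was 0.23 without double mutant replicates 1 and 2 and 0.05, with 18 of 30 above 0, with sex as a term. The family was picked after an earlier ranking of these genes, so its count, like those of the other lists, is no independent evidence.

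Ednrb, the endothelin receptor of neural crest cells and pigment cell precursors, measured 9.45, 9.27 and 9.28 in wt and 9.34, 9.19 and 9.14 in acd. It measured 9.22, 9.24 and 9.23 in p53, and 9.71, 9.67 and 9.45 in double mutants. The interaction was 0.49 ± 0.13 (adjusted p = 0.879), and 0.33 without double mutant replicates 1 and 2. Ngfr, the low-affinity neurotrophin receptor of the same lineage, gave 0.48 ± 0.17, from 0.25 to 0.65 over the alternatives. Over the 16 tested genes of neural crest and melanoblasts the median was 0.10, and 7 lay below 0.

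Transcripts of differentiating neurons had an interaction above 0 for 27 of 29 members, with a median of 0.42. They combined a lower level in acd (median acd minus wt -0.20) with a higher level in double than p53 mutants (median 0.29). Relative to wt the list's mean was 0.01, -0.19 and -0.40 in acd replicates 1, 2 and 3. In double mutants it was 0.20, 0.57 and -0.08. Acd replicate 1 thus lay within the wt range (-0.06 to 0.08) and double mutant replicate 3 just below it. All 3 double mutants lay above the expectation for 18 of the 29, against 16% of all genes. Tubb3, a tubulin of neurons, measured 10.33 to 10.49 in wt, 10.38, 10.14 and 9.91 in acd, a mean of 10.30 in p53, and 10.79, 10.93 and 10.15 in double mutants (0.59 ± 0.26). Stmn2, a microtubule regulator of growing axons, measured 10.27 to 10.44 in wt, 10.40, 10.16 and 9.81 in acd, 10.13 to 10.66 in p53, and 11.48, 11.30 and 10.33 in double mutants (0.82 ± 0.37). Double mutant replicates 1 and 2 lay above all other arrays in both, and replicate 3 did not. The list's median departures were 0.49, 0.78 and 0.12 in replicates 1, 2 and 3. In bulk RNA, more cells of a type and more RNA per cell cannot be told apart.

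Neural progenitor genes were mixed, with 8 of 21 above 0 and a median of -0.18. Nes (nestin, a filament of progenitors) gave 0.37 ± 0.14, Neurog2, which starts neuron formation, 0.39 ± 0.16, and Fabp7, a lipid carrier of radial glia, 0.81 ± 0.37. Olig2, which marks motor neuron progenitors, gave -0.57 ± 0.21, at 6.83 to 6.85 in wt and 6.21, 6.54 and 6.94 in double mutants. Lhx1, a homeobox gene of spinal interneurons and of the nephric duct, measured 8.09, 7.84 and 7.57 in wt, 7.44, 7.06 and 6.92 in acd, 7.57, 7.70 and 7.06 in p53, and 8.01, 8.85 and 7.20 in double mutants. Its interaction was 1.27 ± 0.47 (adjusted p = 0.879), from 0.45 without double mutant replicates 1 and 2 to 1.94.

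**Figure D3:**
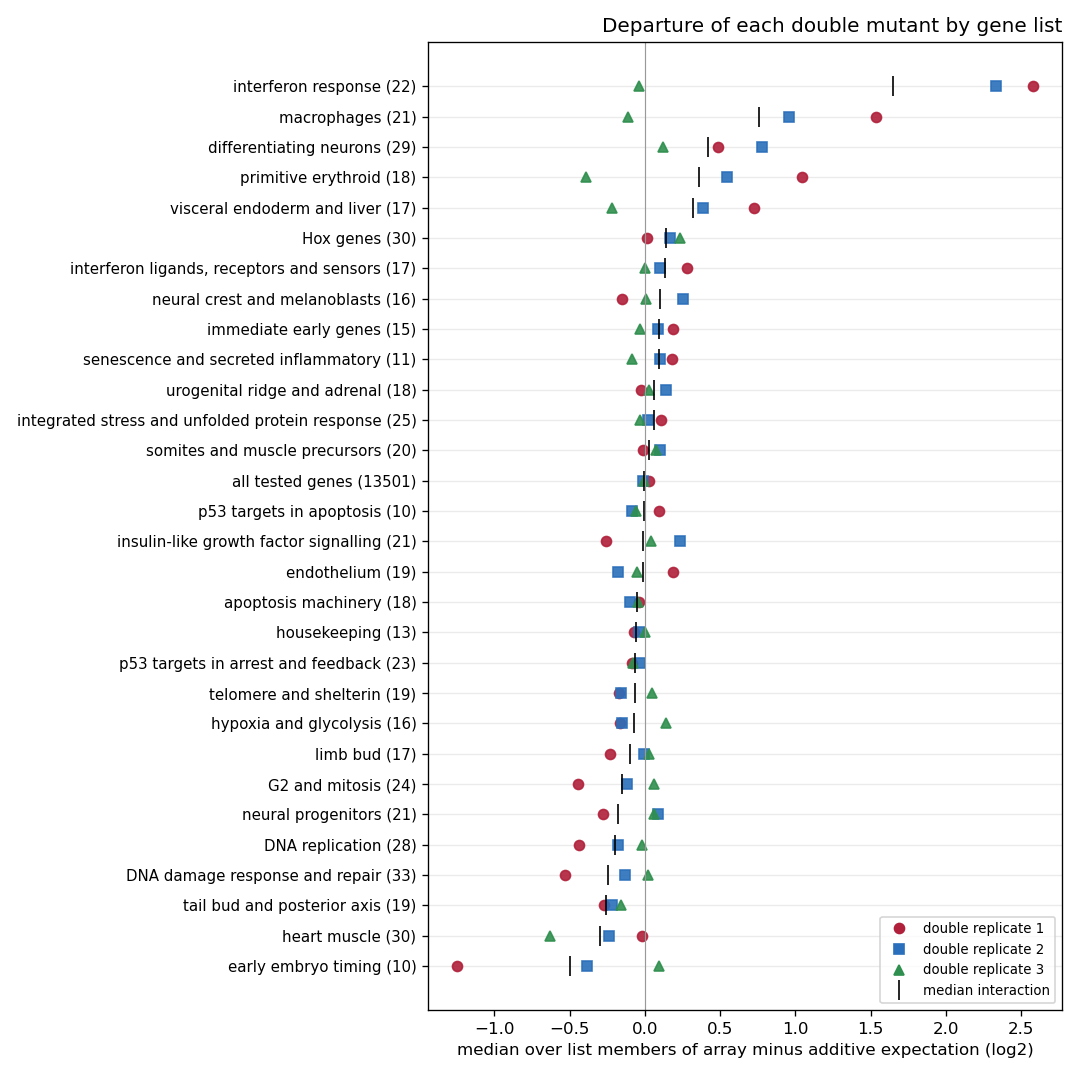
Median over the tested members of each gene list (y axis, number of members in brackets) of a double mutant array minus the additive expectation (x axis, log2), by replicate, with a bar at the median interaction. Interferon response, macrophage, erythroid and liver lists are high in replicates 1 and 2 and at or below 0 in replicate 3. The heart muscle list is lowest in replicate 3 at -0.63, and the tail bud list is below 0 in all 3.

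Genes induced by interferon differed widely between the double mutants, and their interactions came from 2 of the 3 arrays. Rsad2 (viperin, an antiviral enzyme) measured 6.27 to 6.53 in wt, 6.44 to 6.88 in acd, 6.30 to 6.62 in p53, and 10.72, 10.49 and 6.95 in double mutants. Irf9, an interferon regulatory factor, measured 6.36 to 6.65 in the 9 other arrays and 9.52, 9.22 and 6.85 in double mutants. In both genes replicate 3 was just above the other genotypes and replicates 1 and 2 were far above. The interactions were 2.64 ± 1.03 and 1.84 ± 0.71 (adjusted p = 0.879 for each). Without double mutant replicates 1 and 2 they were 0.20 and 0.16. Rtp4, a chaperone of membrane receptors, measured 10.89, 10.19 and 5.94 in double mutants and 4.29 to 5.26 in the others, which is not shown to be above background. For Irgm1, an immunity-related GTPase, the values were 9.88, 9.31 and 5.37 against 4.8 to 5.30.

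All 22 tested interferon response genes had an interaction above 0 (median 1.65), with median departures of 2.58, 2.33 and -0.04. An unadjusted p under 0.05 was found for 9 of the 22, against 2.46% of all genes. Without double mutant replicate 3 the test called 341 genes above 0 (2.53%) and 98 below 0 (0.726%), and 19 of the 22 were among those above. That fit leaves out the array with little or none of the rise and rests on double mutant replicates 1 and 2. Its smaller spread, and so its calls, follow in part from that choice and are no independent evidence. Without replicates 1 and 2, 7 of the 22 were above 0. Ligands, receptors and sensors of the pathway had a median of 0.13 over 17 members.

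Interferon acts on its target genes through a response element in their promoters, whose core is 2 copies of GAAA with 2 bases between them. The motif GAAANNGAAA, or TTTCNNTTTC on the other strand, was searched in the 250 bases before the gene start in RefSeq promoters (GRCm38.p6). A longer run of copies can give overlapping matches. It occurred in 8 of the 18 tested interferon response genes that the promoter table holds (44.4%), against 2.98% of all 32851 promoters and 3.46% of 27025 genes. Rtp4, Usp18, Mx2 and Zbp1 had no entry. The list was made of genes known to be induced by interferon, so a higher share comes with that choice and is no result of these arrays. A match describes the sequence and does not show a site in use. The stretches below are the first 4 members by p with a match, shown because these genes are high in double mutant replicates 1 and 2, and capitals mark the motif.
Rsad2 (chr12:26456538-26456597, minus strand): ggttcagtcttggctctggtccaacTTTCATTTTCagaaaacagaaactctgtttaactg
Irgm1 (chr11:48871421-48871475, minus strand): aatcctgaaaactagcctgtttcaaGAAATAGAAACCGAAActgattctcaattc
Trim30a (chr7:104465195-104465254, minus strand): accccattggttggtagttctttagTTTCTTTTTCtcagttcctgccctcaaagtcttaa
Oas1a (chr5:120907526-120907570, minus strand): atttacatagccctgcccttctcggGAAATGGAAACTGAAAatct
Irgm1 and Oas1a each hold 2 overlapping matches, close to the gene start, while the match of Rsad2 starts at position -120 from it.

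Macrophage transcripts followed the same 2 arrays. Of 21 tested, 19 had an interaction above 0 (median 0.76), with median departures of 1.53, 0.96 and -0.11. Mpeg1, a pore-forming protein of phagocytes, measured 6.97, 6.57 and 4.79 in double mutants and 4.60 to 5.14 in the other arrays. C1qa, a complement subunit made by macrophages, measured 7.28, 6.70 and 4.81 against 4.83 to 5.46. Replicate 3 lay with the other genotypes in both, where neither gene was shown to be above background. Mrc1, the mannose receptor, was above the other arrays in all 3 double mutants, at 6.23, 6.67 and 5.71 against 5.11 to 5.60. The part of these cells in the interferon values was not tested.

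Genes of early embryonic timing lay below expectation in those 2 arrays. Lin28a, which blocks maturation of let-7 microRNAs, measured 8.93, 9.17 and 9.03 in wt, 9.11, 9.37 and 9.94 in acd, 8.99, 8.80 and 9.60 in p53, and 6.18, 7.27 and 9.66 in double mutants. Double mutant replicate 3 lay among the highest arrays. The interaction was -1.86 ± 0.91 (adjusted p = 0.879), -2.83 without replicate 3 (limma adjusted p = 0.00839) and 0.10 without replicates 1 and 2. Leaving out replicate 3 removes the double mutant where Lin28a was not low, so that p follows in part from the choice. Sall4, a pluripotency factor, and Trim71, itself a let-7 target, gave -1.05 ± 0.56 and -1.17 ± 0.63 and turned to 0.16 and 0.19 without replicates 1 and 2. The list's median was -0.50, with 9 of 10 members below 0.

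Heart muscle genes gave the opposite order of arrays. Of 30 tested, 28 had an interaction below 0 (median -0.30), and median departures were -0.02, -0.24 and -0.63 in double mutant replicates 1, 2 and 3. With sex as a term the median was -0.052, with 13 above and 17 below 0. Myh6, the atrial myosin heavy chain, measured 9.27 to 9.55 in wt, 9.40 to 9.55 in acd, 9.52 to 9.67 in p53, and 8.07, 9.26 and 9.24 in double mutants (-0.78 ± 0.35). Tbx20, a transcription factor of heart precursors, measured 7.44 to 7.85 in the 9 other arrays and 6.42, 7.40 and 7.40 in double mutants (-0.73 ± 0.30). In both genes replicate 1 was the lowest array. Ldb3, a protein of the Z disc in striated muscle, gave -0.61 ± 0.18, with double mutants at 6.93, 7.13 and 6.76 and the others at 7.01 to 7.68.

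Double mutant replicate 3 alone, tested against the expectation with the spread of the other genotypes, differed in 25 genes, all below it (0.185% of genes, with 0% above). Its single value is assumed to vary as those groups do. The median SD of 0.209 in double mutants, against 0.059 in wt, 0.072 in acd and 0.095 in p53, goes against that assumption. The 25 genes are therefore a list of low values on 1 array, not a reliable test result. Of the 25, 12 belong to the heart muscle list. Myl2, the ventricular myosin light chain, measured 11.16, 11.18 and 11.21 in wt, 11.24, 11.31 and 11.25 in acd, 11.18, 11.35 and 11.31 in p53, and 11.96, 11.25 and 9.24 in double mutants. Replicate 3 was lower than every other array and replicate 1 higher. The departures were 0.59, -0.12 and -2.12, so the mean of the 3, -0.55 ± 0.68, hides 2 opposite values. Nppa, the atrial natriuretic peptide, had departures of 0.996, -0.07 and -2.01, Pln (phospholamban, of the calcium pump) 0.78, 0.19 and -1.77, Nppb 0.97, -0.03 and -1.64, and Myl3 0.59, -0.28 and -1.37. These genes were named after their values were seen.

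Of the low genes of replicate 3 outside the heart list, Wnt8b, Fezf2, Six3 and Nr2e1 are given here, also named after their values were seen. They are a selection and do not describe the rest. The others were 3110039M20Rik, Dmrta1, Hspb3, Smpx, Dmrt3, Apobec2, Asb2, Mylk3 and Cntnap2, which were not grouped by tissue here. Wnt8b, a Wnt ligand of the cortical margin, measured 6.93 to 7.26 in wt, 7.20 to 7.31 in acd, 7.15 to 7.30 in p53, and 7.51, 7.40 and 5.69 in double mutants. Fezf2, a zinc-finger gene of forebrain progenitors, measured 6.17 to 6.63 in the 9 other arrays and 6.54, 6.47 and 5.07 in double mutants. Replicates 1 and 2 lay within or above the range of the other genotypes and replicate 3 below it. Six3, needed for the rostral forebrain, had departures of -0.52, 0.07 and -0.90, and Nr2e1 of -0.15, 0.23 and -1.25. The other probe sets of Wnt8b gave interactions of -0.13 and 0.05 against -0.53 for the one used, and those of Six3 -0.21 and -0.07 against -0.45. Six3 was the 1 of 21 neural progenitor genes among the 25, and that list's median departure in replicate 3 was 0.060. Of the 25 genes and the 439 called without replicate 3, 1 was shared, or 4% and 0.228% of them, where the 439 are 3.25% of all genes, and 13 of the 25 had an interaction above 0 without replicate 3.

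**Figure D4:**
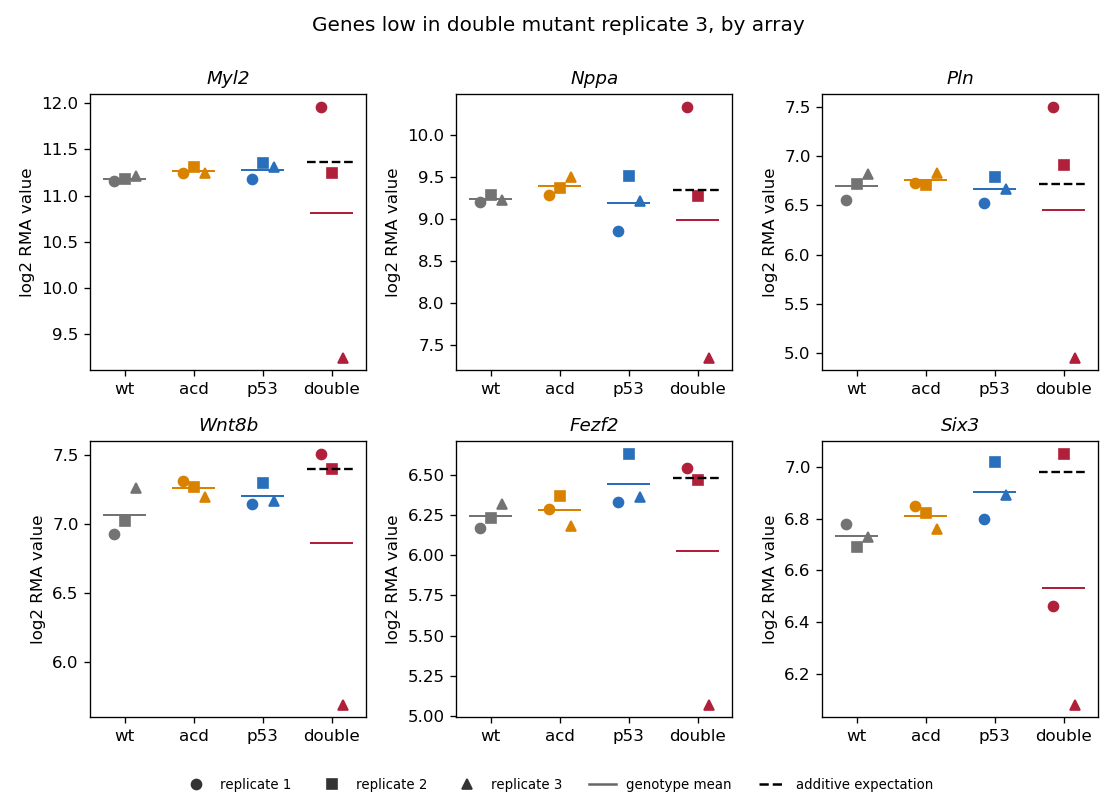
Log2 RMA values (y axis) of Myl2, Nppa, Pln, Wnt8b, Fezf2 and Six3 in each array, by genotype (x axis), with bars at genotype means and a dashed bar at the additive expectation. Double mutant replicate 3 (triangle) is the lowest array in all 6 panels, at 9.24 for Myl2 and 5.69 for Wnt8b, while replicate 1 (circle) is the highest array for Myl2, Nppa and Pln.

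Sex-linked genes gave the largest interactions in size, and the arrays with Y-linked transcripts are spread unevenly over the contrast. Xist, the RNA that silences an X chromosome in females, measured 11.81 to 11.95 in the 4 arrays without Y-linked transcripts and 4.64 to 5.51 in the 8 with them. Its interaction was 9.12 ± 2.82 and that of the Y-linked histone demethylase gene Kdm5d -7.02 ± 1.96 (adjusted p = 0.879 for both). With sex as a term they were -0.44 and -0.37, and Eif2s3y and Uty went from -6.78 and -5.13 to 0.31 and 0.01. That term equals the interaction among the 8 arrays with Y-linked transcripts: the largest difference between the estimates over all genes was 0. It therefore rests on wt replicate 1 and double mutant replicate 1, and sex cannot be told apart there from what sets that double mutant apart.

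The 3 genes above 0 with the smallest p were also on the X chromosome. Jpx, a noncoding RNA that activates Xist, measured 6.30, 6.59 and 6.47 in wt, 6.12, 5.97 and 6.13 in acd, 6.15, 6.35 and 6.18 in p53, and 6.37, 6.51 and 6.63 in double mutants. It lay at 6.47 to 6.63 in arrays without Y-linked transcripts and 5.97 to 6.37 in those with them, and its interaction of 0.66 ± 0.14 was 0.37 with sex as a term. The noncoding gene 5530601H04Rik gave 0.79 ± 0.17, and 0.41 with that term. Vamp7, a vesicle fusion protein, measured 9.04, 9.27 and 9.28 in wt, 9.04, 9.01 and 9.11 in acd, 8.97, 9.08 and 9.03 in p53, and 9.57, 9.50 and 9.33 in double mutants. All double mutants lay above all other arrays, including the male replicate 1, and both probe sets gave 0.59 and 0.58. Its interaction of 0.59 ± 0.13 was 0.53 with sex as a term.

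**Figure D5:**
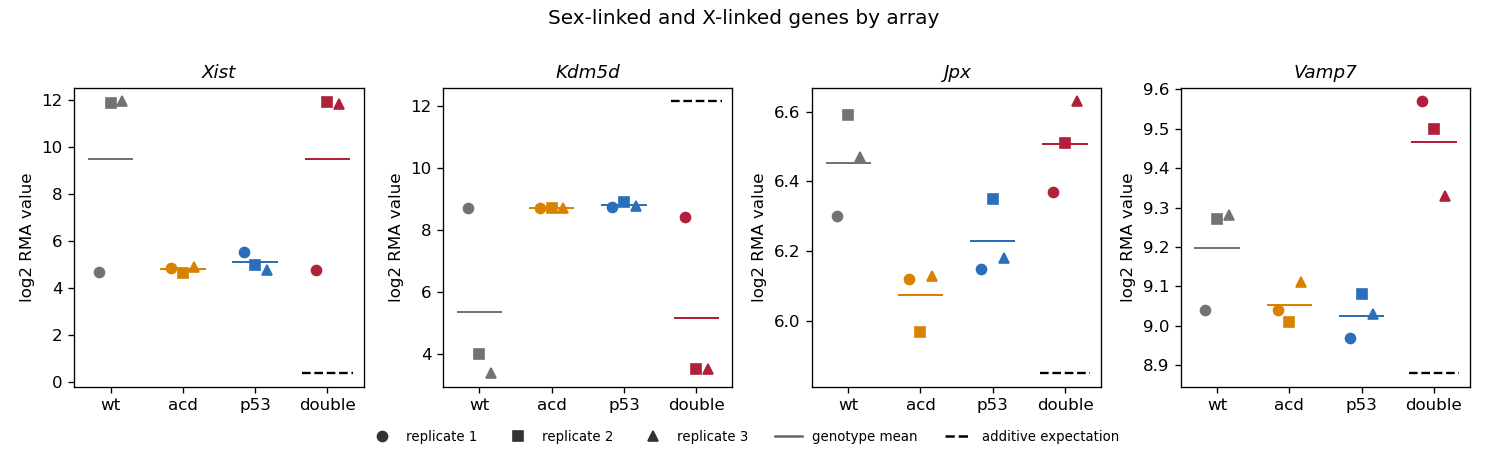
Log2 RMA values (y axis) of Xist, Y-linked Kdm5d and X-linked Jpx and Vamp7 in each array, by genotype (x axis), with bars at genotype means and a dashed bar at the additive expectation. Wt and double mutant replicate 1 lack Xist and have Kdm5d, as do all acd and p53 arrays, and Vamp7 is higher in the 3 double mutants (9.33 to 9.57) than in the rest.

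Chromosome 11, with 1115 of the 13501 tested genes, held 6 of the 20 genes with the smallest p in either direction. The X chromosome, with 429, held 4. Of 1115 tested genes on chromosome 11, 60 had an unadjusted p under 0.05 (5.38%), against 5.13% of X genes, 5.92% of chromosome 3 genes and 3.93% of all. In Slfn9 and Rsad1 the wt mean lay above the means of the other 3 genotypes. Slfn9, a Schlafen family gene, measured 7.53, 7.42 and 7.17 in wt, 6.63, 6.22 and 7.09 in acd, 6.37, 6.32 and 6.34 in p53, and 6.78, 7.25 and 6.39 in double mutants, an interaction of 1.19 ± 0.32, with double mutant replicate 2 within the wt range. Rsad1 measured 7.38, 7.39 and 6.64 in wt, 5.41, 5.50 and 6.59 in acd, 5.69, 5.61 and 5.90 in p53, and 5.12, 6.30 and 5.27 in double mutants. Its interaction of 1.13 ± 0.50 thus came with a double minus p53 difference of -0.18, and its other probe sets gave 0.03 and -0.15. In both genes each single mutant's mean lay below wt. Pctp, a phosphatidylcholine carrier, had double mutants at 6.58, 6.55 and 6.71, within the wt range of 6.53 to 6.79, with acd at 6.86 to 7.0 and p53 at 6.77 to 7.03. Its interaction was -0.50 ± 0.14.

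Of the remaining genes with the smallest p, Vit (vitrin, an extracellular matrix protein) measured 6.42, 6.02 and 6.07 in wt, 6.01, 5.86 and 6.0 in acd, 5.61, 6.10 and 6.01 in p53, and 6.45, 6.53 and 6.31 in double mutants (0.74 ± 0.20). Aldh1a3, which makes retinoic acid, measured 5.84 to 5.99 in wt, 5.91 to 6.47 in acd, 5.88 to 6.51 in p53, and 5.03, 5.63 and 4.93 in double mutants. All double mutants lay below the others, and the 3 probe sets of Aldh1a3 gave -0.34, -0.72 and -1.23. Double mutant replicates 1 and 3 were under the array medians, where background can compress a difference. Fam20a, Mrgpre, Tns4 and Trim61 were around or below the medians in every array, so no size is given for them. Igfbp3, a binding protein of insulin-like growth factors, measured 8.80 to 8.99 in wt, 8.61 to 8.75 in acd, 8.82 to 8.90 in p53, and 9.58, 9.37 and 8.93 in double mutants (0.63 ± 0.19). Fgf10, a limb bud growth factor, gave -0.58 ± 0.21 and Myog, a muscle differentiation factor, 0.51 ± 0.22, whereas the limb bud and somite lists had medians of -0.10 and 0.03.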

How the data were processed

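The deposited values are log2 RMA values of 45101 probe sets (64 controls). Per the labels' design text, the authors used justRMA for normalization and BRB-ArrayTools 4.4.0 for gene selection. Values were used as deposited. Because RMA makes the arrays' distributions nearly alike, total RNA cannot be compared.

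The brightest probe set on average stood for its gene, and 3 or more arrays had to show it past their 40th percentile. Means per genotype were fitted with limma 3.58.1 in R 4.3.3 (8 residual degrees of freedom, two-sided moderated tests, Benjamini-Hochberg adjustment over 13501 genes). The fit was run on simulated data with the same spread in all genotypes. The double mutants here spread more, so that run checked only the computation. Symbols were matched to RefSeq (GRCm38.p6), which changed 0 of them.

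Named were Acd, the 10 genes with the smallest p and the 8 with the largest departure in every double mutant in each direction, up to 4 members per list of at least 5 tested, and sex-linked genes. Fewer are printed, and other names are marked or belong to a list's count. The members and the 30 lists were chosen with earlier results of these data known. Alternatives covered a replicate block, filters, probe set rules, normalizations, variance models, sex, thresholds and left-out arrays.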

Additional observations from a re-analysis of the deposited data

How the results depend on the processing

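No gene passed under a replicate block (713 at an unadjusted p under 0.05), other filters, probe set rules, normalizations or variance models, without moderation, or at an adjusted p of 0.10. With sex as a term 1 gene passed, without double mutant replicates 1 and 2 together 25, and leaving out 1 array gave 0 to 439, the 439 without double mutant replicate 3. The 531 genes at an unadjusted p under 0.05 became 2920 with array weights, 3206 with sex as a term and 219 to 2689 with 1 array left out. Same-numbered arrays of different genotypes had correlations of their deviations from -0.23 to 0.39, over 0.1 in 7 of 18 pairs. These values neither show nor exclude a pairing of the samples by number.

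Signs of single genes turned as follows, and the cause was not tested. Without double mutant replicates 1 and 2, Alb measured -0.12, C1qa -0.062, Lin28a 0.10, Mpeg1 -0.069, Sall4 0.16 and Trim71 0.19. With sex as a term Eif2s3y was 0.31, Myl2 0.57, Myl3 0.50, Nppa 0.95, Nppb 0.94, Pln 0.64, Uty 0.012 and Xist -0.44. With 1 array left out, Fezf2 ran from -0.71 to 0.026, Myl2 from -1.12 to 0.24, Myl3 from -0.83 to 0.16, Nppa from -1.04 to 0.46, Nppb from -0.83 to 0.47, Nr2e1 from -0.70 to 0.042, Pln from -0.79 to 0.49 and Wnt8b from -0.85 to 0.055. Their highest values were those without double mutant replicate 3.

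List medians that changed sign by at least 1 SD between replicates without double mutant replicates 1 and 2 were telomere 0.045, repair 0.021, mitosis 0.060, interferon response -0.042, interferon ligands and sensors -0.002, macrophages -0.11, neural progenitors 0.060, early timing 0.091, limb bud 0.025, erythroid -0.40, liver -0.22, stress response -0.032, hypoxia 0.14, immediate early -0.030 and senescence -0.088, and insulin-like growth factor signalling turned to 0.038 by less than that. With sex as a term neural crest was -0.11, somites -0.048 and endothelium 0.18, and with array weights neural progenitors were 0.009, limb bud 0.003 and insulin-like growth factor signalling 0.19. With 1 array left out, neural progenitors ran from -0.188 to 0.001, neural crest from -0.089 to 0.17, limb bud from -0.147 to 0.021, urogenital from -0.043 to 0.099, stress response from -0.018 to 0.074 and insulin-like growth factor signalling from -0.086 to 0.141.

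The number of arrays limits the precision, 2 of the 3 double mutants stand apart, and sex is unevenly spread over the contrast. In the fit with sex as a term, sex and double mutant replicate 1 cannot be told apart.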

Other observations

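Transcripts of primitive red cells had an interaction above 0 for 18 of 18 tested members (median 0.36), with none at an unadjusted p under 0.05. Their median departures were 1.04, 0.55 and -0.40 in double mutant replicates 1, 2 and 3, and all 18 were below 0 without replicates 1 and 2. Arrays of the other genotypes varied as well: relative to wt the list's mean was -0.28, 0.62 and 0.00 in acd, -0.24, 0.09 and -0.51 in p53, and 0.86, 0.40 and -0.50 in double mutants. Alas2, which starts haem synthesis, departed by 1.35, 0.70 and -0.41, and Hemgn, a nuclear protein of red cell precursors, by 1.32, 1.21 and -0.64. Visceral endoderm and liver transcripts had a median of 0.32 and median departures of 0.72, 0.39 and -0.22. P53 replicate 2 stood apart here, with a list mean relative to wt of 0.90 against -0.05 and -0.12 in the other p53 arrays and 1.10, 0.92 and 0.22 in double mutants. Alb, albumin, measured 10.25, 9.89 and 7.64 in double mutants and 7.04 to 7.96 in the other arrays.

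The endothelial, hypoxia and glycolysis, apoptosis machinery and stress response lists had median interactions of -0.02, -0.07, -0.05 and 0.06. Immediate early, senescence and urogenital lists had 0.09, 0.09 and 0.06, and housekeeping genes -0.06. The 1 gene that passed with sex as a term was Gtf3c2, a subunit of transcription factor IIIC, at 9.20 and 9.19 in wt and double mutant replicate 1 and 9.78 to 9.97 in the other 10 arrays.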
